A study of Mus musculus with 9 samples.

Results

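The data described here are the small RNA reads that still ended in Ts in Meis1/Hoxa9 preleukemic cells labelled as knockouts of Tut4 and Tut7. All 4 KO libraries of the 9 in the series were used, and the miRNAs described one by one are the 80, of 817 listed, that had at least 50 reads in every KO library. The series compared mouse preleukemic cells, named preLSC in the labels, of the genotypes Tut4/7 Vav-iCre KO (replicates 1 to 4) and WT (replicates 1 to 5). All 9 samples carry the treatment label Hox9/Meis1 and grew in IMDM with FBS, Stem Cell Factor, IL-6 and IL-3. The cells were c-Kit-selected from fetal liver and transformed with retroviral Meis1 and Hoxa9. Vav-iCre recombines floxed alleles in blood cells, so each KO culture is a transformed line whose floxed alleles were exposed to the recombinase in the blood lineage. The paper shows PCR products of the Tut4 and Tut7 deletions in Meis1/Hoxa9 transformed replicates. It does not say whether the cultures sequenced here were among them. Tut4 and Tut7 are not small RNAs, so how complete their deletion was in these libraries could not be read from the data. Whether the remaining T-ending reads moved with it was not tested. The study's methods state that its replicates came from different animals or embryos. No test between genotypes was made. Values of the WT libraries are given beside some results as the control level. The name WT is that of the labels. The paper describes its control cells as carrying floxed Tut4 and Tut7 alleles without Vav-iCre.

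TUT4 and TUT7 are terminal uridylyltransferases, enzymes that add uridines to the 3′ ends of RNA, among them let-7 precursors, mature miRNAs and mRNAs with short poly(A) tails. Other nucleotidyltransferases of mammalian cells can also extend miRNAs. A mature miRNA is cut from a hairpin by Drosha and Dicer, and if the cut falls 1 base further along, the read carries the next base of the hairpin, which can itself be a T. The authors mapped reads without mismatches to each mature sequence followed by 3 added Ts. A T-ending read is here a read that ended 1, 2 or 3 bases past the mature 3′ end. In such a read a T copied from the genome and an added T look alike. Reads extended by another genomic base had no place on this reference and are in none of the totals.

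The next letters show which reads this concerns. Each line gives a mature miRNA in lower case as DNA and, in capitals, the 6 bases that follow it in the mouse genome (GRCm39). The first set has a genomic T at 1 or more loci and held most of the T-ending reads.
miR-92a-3p, locus Mir92-1: tattgcacttgtcccggcctgTTGAGT
miR-92a-3p, locus Mir92-2: tattgcacttgtcccggcctgAGGAAG
miR-7a-5p, locus Mir7-1: tggaagactagtgattttgttgtTTTTAG
miR-7a-5p, locus Mir7-2: tggaagactagtgattttgttgtTGTGTC
miR-26b-5p, locus Mir26b: ttcaagtaattcaggataggtTGTGGT
miR-25-5p, locus Mir25: aggcggagacttgggcaattgcTGGACG
miR-139-5p, locus Mir139: tctacagtgcacgtgtctccagTGTGGC
miR-155-5p, locus Mir155: ttaatgctaattgtgataggggtTTTGGC
miR-181a-5p, locus Mir181a-1: aacattcaacgctgtcggtgagtTTGGAA
The second set has another base there, so no read of it that ends in T can be copied from its locus. The first 5 of them held T-ending reads in every KO library, miR-27a-3p held none, and let-7i-5p was the most abundant miRNA.
miR-21a-5p, locus Mir21a: tagcttatcagactgatgttgaCTGTTG
miR-342-3p, locus Mir342: tctcacacagaaatcgcacccgtCACCTT
miR-340-3p, locus Mir340: tccgtctcagttactttatagcCATACC
miR-223-3p, locus Mir223: tgtcagtttgtcaaataccccaAGTGTG
miR-146b-5p, locus Mir146b: tgagaactgaattccataggctGTGAGC
miR-27a-3p, locus Mir27a: ttcacagtggctaagttccgcCCCCTG
let-7i-5p, locus Mirlet7i: tgaggtagtagtttgtgctgttGGTCGG

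On the plus strand, the Mir92-1 copy of miR-92a-3p lies at chr14:115281908-115281928, within an exon of the host transcript Mir17hg. Its Mir92-2 copy lies on the minus strand at chrX:51830731-51830751, in an intron of Kis2. The Mir7-1 copy of miR-7a-5p is intronic in Hnrnpk, at chr13:58540655-58540677 on the minus strand. MiR-26b-5p, at chr1:74433483-74433503 on the plus strand, is intronic in Ctdsp1. MiR-155-5p, at chr16:84511031-84511053 on the plus strand, lies in an exon of Mir155hg. MiR-21a-5p, at chr11:86474946-86474967 on the minus strand, overlaps an exon of Vmp1. MiR-342-3p, at chr12:108624939-108624961 on the plus strand, is intronic in Evl. Of the 80 miRNAs, 37 had a genomic T next to the mature end at 1 or more annotated loci and 43 did not. The longest run of genomic Ts was 1 base for 22 miRNAs, 2 for 12, 3 for 2 and 4 for 1. None of the 80 mature sequences occurred elsewhere in the genome before a longer T run.

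The KO libraries held 175462, 388804, 479342 and 359396 miRNA reads in replicates 1 to 4, and the 80 miRNAs held 97.6 ± 0.572% of them (SD, n = 4). Of the miRNAs listed, 665 had a read in 1 or more KO libraries and 293 in every one. Across the 80 miRNAs, the log2 share of reads in replicate 4 had a Pearson r of 0.731 to 0.848 with the other libraries, while those correlated at 0.910 to 0.949 with each other. These correlations run across miRNAs of shared sequence families and carry no test. Replicate 4 thus stood apart in abundance, and the main values without it are given below. All 6 miRNAs listed as hematopoietic had reads, together 4.48 to 8.91% of a library, with miR-181a-5p holding most of them. MiR-223-3p, the granulocyte miRNA, gave 372, 378, 1311 and 3778 reads in replicates 1 to 4, and miR-142a-3p, a miRNA of all blood lineages, only 12 to 55 reads. The erythroid miR-451a had 0 to 2 reads a library and the lymphoid miR-150-5p 13 to 103. The liver miRNA miR-122-5p made up 0.0581 to 0.142% of reads, and the source of these reads was not tested. Of the Hox cluster miRNAs, miR-10a-5p gave 167, 207, 554 and 11205 reads, so replicate 4 was far above the rest, and miR-196a-5p was listed with 0 reads. The epithelial list summed to 0.0313 to 0.164% and the mesenchymal list to at most 0.00228%. The muscle and neural lists had at most 2 reads a library, and the endothelial and stem cell marker miR-126a-3p had 12 to 109. The part of these differences in the results was not tested.

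T-ending reads made up 19.3, 12.1, 10.1 and 7.55% of the miRNA reads of replicates 1 to 4, a mean of 12.3 ± 5.04% (SD, n = 4). The 95% Wilson interval of each share was at most 0.369 percentage points wide. MiR-92a-3p, a member of the oncogenic miR-17-92 cluster, supplied 84.2, 72.5, 67.8 and 53.8% of these reads. Its own share of all miRNA reads was 17.0, 9.10, 7.09 and 4.26% in the same order. With miR-92a-3p left out, T-ending reads made up 3.68, 3.67, 3.50 and 3.64% of the remaining reads. Without this miRNA the libraries thus differed little, with a mean of 3.62% and an SD of 0.0839 percentage points. In the WT libraries T-ending reads made up 10.8 to 24.8%, a range that overlaps the KO range. The lowest of these was WT replicate 2, and the other WT libraries had 14.4 to 24.8%.

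**Figure D1:**
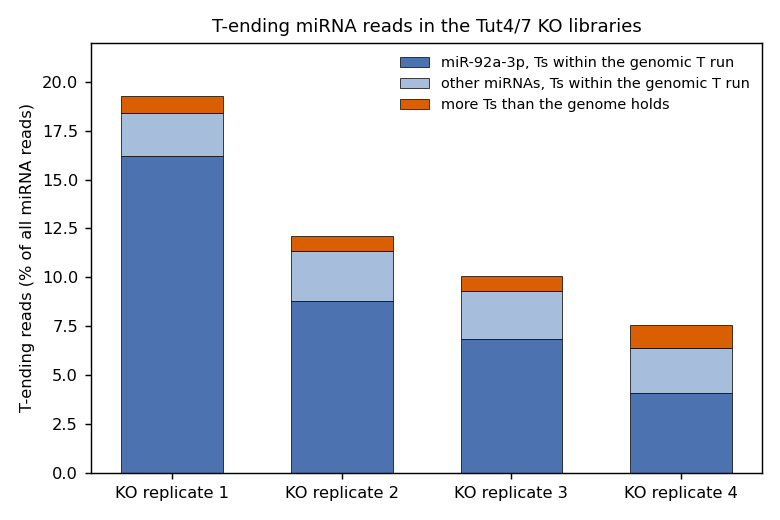
Stacked bars of T-ending reads as a percentage of all miRNA reads (y axis) in the 4 KO libraries (x axis), split into miR-92a-3p reads within the genomic T run, reads of other miRNAs within the genomic T run, and reads with more Ts than the genome holds. The miR-92a-3p part falls between 4.07 and 16.2%, while the topmost part stays between 0.790 and 1.14%.

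Within the genomic T run means that a read has no more Ts than follow the miRNA at its most T-rich locus, and such reads made up 91.5 ± 4.60% of all T-ending reads. The others, with more Ts than the genome holds, numbered 1539, 3073, 3825 and 4098 in replicates 1 to 4. They were 0.877, 0.790, 0.798 and 1.14% of the miRNA reads, a mean of 0.901 ± 0.164%, against 1.17 to 3.83% in the 5 WT libraries. Among all reads of miRNAs without a genomic T, 1.71, 1.47, 1.44 and 2.08% ended in T, and in the WT libraries 2.22 to 7.27%. The highest KO value lay just below the lowest WT value in both measures. The medians over libraries lay further apart, at 0.838% in KO and 3.31% in WT for the first measure. For the second they were 1.59% and 6.40%. Without replicate 4 these KO means were 0.822% and 1.54%, and that of all T-ending reads was 13.8%.

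Reads ended mostly in 1 T. Over the 4 KO libraries 151917 of 156412 T-ending reads had 1 T, 4477 had 2 and 18 had 3. Reads with 2 or 3 Ts were 2.90 ± 0.771% of T-ending reads, and 5.79 to 13.3% in the WT libraries. Reads with 3 Ts numbered 3 to 7 in a KO library and 52 to 715 in a WT library. The 52 were in WT replicate 2, and the other WT libraries had 454 to 715. Of the 4409 reads with 2 Ts from the 80 miRNAs, 4100 did not go past the genomic run. MiR-181a-5p, which acts in lymphocyte development, gave 3736 of them. Both its loci continue with TTG, as shown for Mir181a-1 above, and it was the only 1 of the 80 in which 2 Ts outnumbered 1 T, with 1816 reads of 1 T. Of the 18 reads with 3 Ts, 5 were within a genomic run. MiR-181a-5p had 4 of the 18, miR-92a-3p 3, and let-7i-5p and miR-7a-5p 2 each. MiR-26a-5p, miR-148b-3p and miR-320-3p had 1 each, and the rest came from miRNAs outside the 80.

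The typical miRNA held few T-ending reads. The median T-ending share over the 80 miRNAs was 0.349 ± 0.0974% (n = 4), ranging from 0.271 to 0.481%. In the WT libraries the median of the same miRNAs ranged from 0.818 to 5.23%, and the middle library had 4.78%. A T-ending read was present in every KO library for 52 miRNAs, in some for 23 and in none for 5. The mean share was at least 1% for 25 miRNAs, at least 10% for 16 and at least 50% for 6. All of the last 6 were followed by a genomic T. The T-ending shares of the 80 miRNAs had a Pearson r of 0.980 to 0.992 between KO libraries, across miRNAs. The few miRNAs with high shares weigh most in this r, and the Spearman correlation was 0.769 to 0.877. Among the 43 without a genomic T the Pearson r was 0.935 to 0.991 and the Spearman correlation 0.577 to 0.850.

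**Figure D2:**
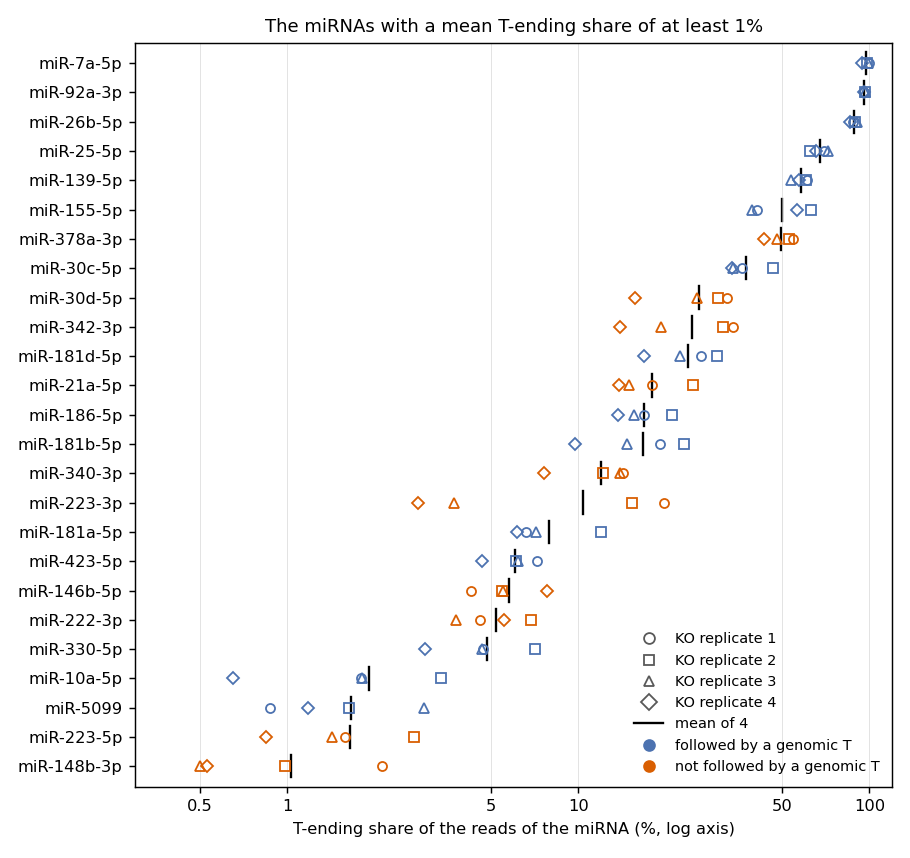
T-ending share of the reads of each miRNA (x axis, percent, log axis) for the 25 miRNAs with a mean of at least 1%; symbols are the 4 KO libraries, black ticks their means, blue a genomic T next to the mature end and orange another base. Shares run from 97.6% in miR-7a-5p to 1.03% in miR-148b-3p, and 15 of the 25 are blue.

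Among miRNAs followed by a genomic T, miR-7a-5p had T-ending shares of 99.4, 98.4, 98.7 and 94.0% in replicates 1 to 4. MiR-92a-3p had 95.7, 96.5, 96.3 and 95.5%, and only 3.41% of its reads ended at the annotated mature end. For these 2 miRNAs the KO and WT ranges overlapped, with 94.0 to 96.8% and 94.99 to 97.5% in WT libraries. Their reads thus mostly ended 1 base past the annotated end in both genotypes.

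MiR-26b-5p, whose family represses the histone methyltransferase gene Ezh2, had 88.0, 89.3, 90.4 and 85.6%. It also held 69 reads with 2 Ts, 1 more than its locus offers. MiR-25-5p, the minor strand of the miR-25 hairpin in Mcm7, had 70.0, 62.5, 72.1 and 65.8%. MiR-139-5p, encoded within Pde2a, had 61.1, 60.4, 53.8 and 57.2%. The SDs of these 3 miRNAs were 2.07, 4.31 and 3.35 percentage points.

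MiR-155-5p, a miRNA of activated immune cells, varied more, with 41.2, 63.0, 39.6 and 56.4%. It is followed by 3 genomic Ts, yet 2747 of its 2756 T-ending reads had only 1. MiR-30c-5p, of the miR-30 family, had 36.5, 46.6, 34.1 and 33.8%. MiR-181b-5p had 19.1, 23.2, 14.7 and 9.71% and miR-181a-5p 6.59, 11.9, 7.13 and 6.13%. Replicate 2 was the highest KO library for each of these 4. Their WT ranges were, in the same order, 50.3 to 72.4, 36.1 to 57.0, 17.5 to 25.8 and 12.4 to 20.0%. The KO and WT ranges overlapped except for miR-181a-5p, whose KO values all lay below its WT range.

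A genomic T did not by itself go with many T-ending reads. Of the 37 miRNAs so placed, 22 had a mean share under 1%, and shares among the 22 with a run of 1 T ranged from 0.0210 to 88.3%. MiR-191-5p, followed by 2 genomic Ts, had 0.191, 0.0495, 0.0771 and 0.102%. MiR-193b-3p, followed by 3, had 2 T-ending reads of 1411. The median over these 37 miRNAs was 0.676 ± 0.376% against 0.175 ± 0.0357% for the 43 without a genomic T. The difference of 0.501 ± 0.373 percentage points was above 0 in 4 of 4 libraries (p = 0.125, exact permutation test flipping the sign of each library, 2-sided, n = 4), and 0.125 is the smallest p that 4 libraries allow. The test asks whether the sign repeats over libraries that hold the same miRNAs, and it does not measure the spread among miRNAs of a class. Replicate 1 had the largest difference, 1.06 points, against 0.274 to 0.391 in the others.

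The 5p miRNAs had a higher median share than the 3p miRNAs, with 0.697 ± 0.319% over 42 and 0.155 ± 0.0438% over 35. The difference of 3p minus 5p was -0.543 ± 0.296 percentage points and below 0 in 4 of 4 libraries (p = 0.125, exact permutation test, 2-sided, n = 4). This p, too, measures repetition over libraries and not the spread among miRNAs. A genomic T followed 27 of the 5p and 9 of the 3p miRNAs. Among the 43 without one, the medians were 0.113% over 15 5p miRNAs and 0.238% over 26 3p miRNAs, the opposite order.

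Reads with more Ts than the genome holds came from few miRNAs. MiR-378a-3p, miR-30d-5p, miR-21a-5p and miR-342-3p together gave 83.2 ± 4.50% of them (n = 4). MiR-378a-3p alone, encoded with the metabolic coactivator gene Ppargc1b, gave 40.6 ± 8.65%. None of the 4 is followed by a genomic T, and each has a C there.

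MiR-378a-3p held T-ending shares of 54.7, 52.9, 48.3 and 43.5% in replicates 1 to 4, on 868 to 4689 reads. In the WT libraries its share was 42.8 to 64.9%, which encloses the KO values. It was the one miRNA without a genomic T whose most common end was past the mature end. MiR-30d-5p held 32.5, 30.1, 25.5 and 15.6%, with 22.7 to 49.3% in the WT libraries. Its reads were also often short, with 40.9 ± 4.35% ending before the mature 3′ end.

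MiR-342-3p, encoded within Evl, held 33.9, 31.5, 19.2 and 13.9% on 115 to 1127 reads, against 21.4 to 46.7% in the WT libraries. MiR-21a-5p, an oncogenic miRNA, held 17.96, 24.8, 14.9 and 13.8%. Its WT range was 18.8 to 34.1%, so the KO and WT ranges of both these miRNAs overlapped in part. MiR-340-3p held 14.3, 12.2, 13.9 and 7.59%, the last on 79 reads, and 6.25 to 30.8% in the WT libraries. Replicate 4 was the lowest of the KO libraries for all 5 of these miRNAs.

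MiR-223-3p is followed by AGT and still held 73, 58, 49 and 106 T-ending reads, which were 19.6, 15.3, 3.74 and 2.81% of its reads. Replicates 1 and 2 had few reads of this miRNA and high shares, replicates 3 and 4 more reads and low shares. Over the libraries 124 of its 286 T-ending reads had 2 Ts, so its reads with 2 Ts were nearly as many as its 162 with 1. MiR-146b-5p, which restrains NF-κB signaling, differed from the others in that replicate 4 was the highest, with 4.28, 5.45, 5.51 and 7.81%, and the WT range was 6.94 to 11.3%. MiR-148b-3p held 12 to 19 T-ending reads a library, a share of 0.501 to 2.12%. Its WT range was 3.51 to 33.2%, with a median of 31.8%.

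**Figure D3:**
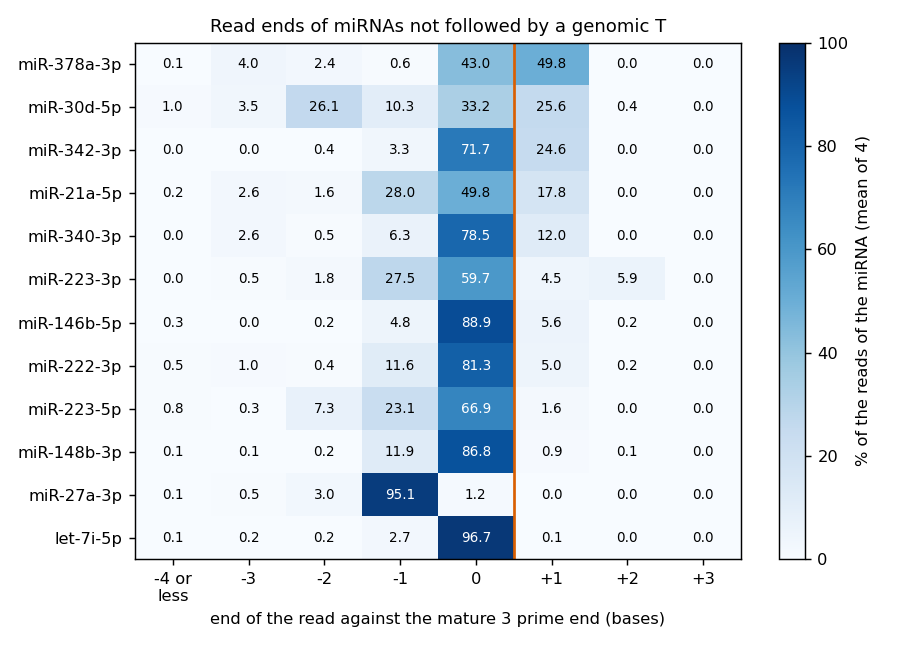
Where the reads of 12 miRNAs without a genomic T ended, in bases from the mature 3′ end (x axis, 0 is the annotated end, values right of the orange line are added Ts); each cell is the mean percentage of the reads of that miRNA over the 4 KO libraries. MiR-378a-3p has 49.8% of its reads at 1 T past the end, while miR-27a-3p has 95.1% at 1 base before it and let-7i-5p 96.7% at the end itself.

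The 43 miRNAs without a genomic T differed by the base that follows in the genome. Of the 15 followed by C, 7 had a mean share of at least 1%, against 2 of the 17 followed by G and 1 of the 11 followed by A. The medians were 0.851 ± 0.575% with C, 0.0831 ± 0.0468% with G and 0.256 ± 0.106% with A (n = 4). A mean share of at least 1% was found for 4 of the 13 whose own last base is T, 3 of the 10 ending in G, 2 of the 11 ending in A and 1 of the 9 ending in C. These counts are small and were not tested. Reads extended by the following C, G or A were not mapped, so each class lacks an unknown part of its reads. The shares of the classes are therefore not fully comparable.

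The most abundant miRNA without a genomic T, let-7i-5p, had only 36, 52, 69 and 55 T-ending reads on 23687 to 89529 reads, a share of 0.107 ± 0.0396%. Its WT range was 0.266 to 2.20%, with a median of 1.43%. The let-7 family restrains growth and is the classical substrate of TUT4 and TUT7 as a precursor. The 15 let-7 miRNAs with KO reads, 7 of them among the 80, held 28.2 ± 5.70% of all reads, and 0.336 ± 0.133% of these reads ended in T. Let-7a-5p had T-ending shares of 1.54, 0.578, 0.431 and 0.946%, let-7g-5p of 0.432 to 0.723%, let-7d-5p of 0.271 to 0.746% and let-7f-5p of 0.255 to 1.24%. These 4 are followed by a genomic T at 1 or more loci, and let-7i-5p is not. Replicates 1 and 4 were above replicates 2 and 3 in these 4 and in let-7i-5p. Let-7c-5p had 3 T-ending reads of 1893 and let-7d-3p 2 of 4982. Of the reads of let-7c-5p, 88.3% would also match another mature sequence, so its assignment is uncertain.

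No T-ending read was found in any KO library for 5 miRNAs, none of them followed by a genomic T. MiR-27a-3p, of the miR-23a cluster, had 0 of 12437 reads, which allows a share of up to 0.0241%. Only 1.23 ± 0.479% of its reads ended at the annotated end and the rest were shorter. MiR-27a-5p had 0 of 2874, which allows up to 0.104%. Of its reads 76.8% reached the mature end. MiR-30e-3p had 0 of 1613, miR-30b-3p 0 of 1156 and miR-221-5p 0 of 820, which allow up to 0.186, 0.260 and 0.366%. MiR-27a-5p had no T-ending read in the WT libraries as well, whereas the other 4 did.

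The share of T-ending reads depends on how many reads reach the mature end at all. Over the 80 miRNAs the most common end was the mature end for 59, 1 base before it for 8, 2 before it for 5, at least 4 before it for 1 and 1 T past it for 7. More than 50% of reads were short of the end for 19 miRNAs. MiR-330-5p is an example, with 4.85 ± 1.69% T-ending reads, or 27.2 ± 4.31 per 100 reads that reached the end.

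Just inside the minimum of 50 reads lay miR-130b-5p, miR-200c-3p and miR-22-3p, with 50, 51 and 54 reads in their lowest library and 1 T-ending read each. Just outside lay miR-17-5p and miR-30a-3p, with 49 reads in the lowest library and 2 T-ending reads each. MiR-3963, with 46 reads in its lowest library, also lay outside, and 244 of its 246 reads ended in T.

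In abundance, let-7i-5p led with 13.5, 19.1, 18.7 and 12.0% of the reads of replicates 1 to 4. MiR-92a-3p followed with the values given above and was first in replicate 1 and sixth in replicate 4. Means then ran from 5.33 ± 2.40% for miR-423-3p through 5.26 ± 1.25% for miR-181a-5p, 5.17 ± 0.980% for miR-191-5p, 4.64 ± 1.40% for miR-26a-5p, 4.39 ± 1.57% for let-7a-5p and 4.16 ± 0.762% for miR-25-3p to 3.57 ± 0.693% for let-7g-5p and 2.44 ± 0.547% for let-7d-5p. Neighbors in this order from rank 3 to rank 8 differed by less than their SD. These 10 miRNAs held 62.9, 62.4, 63.7 and 51.5% of reads, and the 10 most abundant miRNAs of replicates 1 to 3 alone held 63.3% of their reads on average. Of the miRNAs in the first 10 of any KO library, which numbered 14, 7 were in the first 10 of every one. Only 8 miRNAs made up the first 50% of reads and 36 the first 90%. Shares of different miRNAs also carry the preferences of adapter ligation, so they order reads rather than molecules.

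The leading miRNAs share few seeds, the bases 2 to 8 that pair with targets, printed in capitals (mature sequences from RefSeq, build GRCm38.p6). The let-7 members have a common seed, as do miR-92a-3p and miR-25-3p, and miR-26a-5p and miR-26b-5p.
let-7i-5p: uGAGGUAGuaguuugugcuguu
let-7a-5p: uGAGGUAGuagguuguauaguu
let-7g-5p: uGAGGUAGuaguuuguacaguu
let-7d-5p: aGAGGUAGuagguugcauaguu
miR-92a-3p: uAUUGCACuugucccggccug
miR-25-3p: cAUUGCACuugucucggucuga
miR-26a-5p: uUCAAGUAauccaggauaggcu
miR-26b-5p: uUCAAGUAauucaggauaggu
miR-423-3p: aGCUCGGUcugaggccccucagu
miR-181a-5p: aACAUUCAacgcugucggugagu
miR-191-5p: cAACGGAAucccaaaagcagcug
Members of 1 seed family could differ strongly in T-ending reads. MiR-92a-3p had 96.0% and miR-25-3p 0.116%, and miR-26b-5p had 88.3% and miR-26a-5p 0.110%. In both pairs the first has a genomic T and the second does not. The annotated mature sequence also differs in length, with 21 bases for the first and 22 for the second. A read of the first with 1 T past its end is thus as long as a full mature read of the second. The part of the annotated end in this contrast was not tested.

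**Figure D4:**
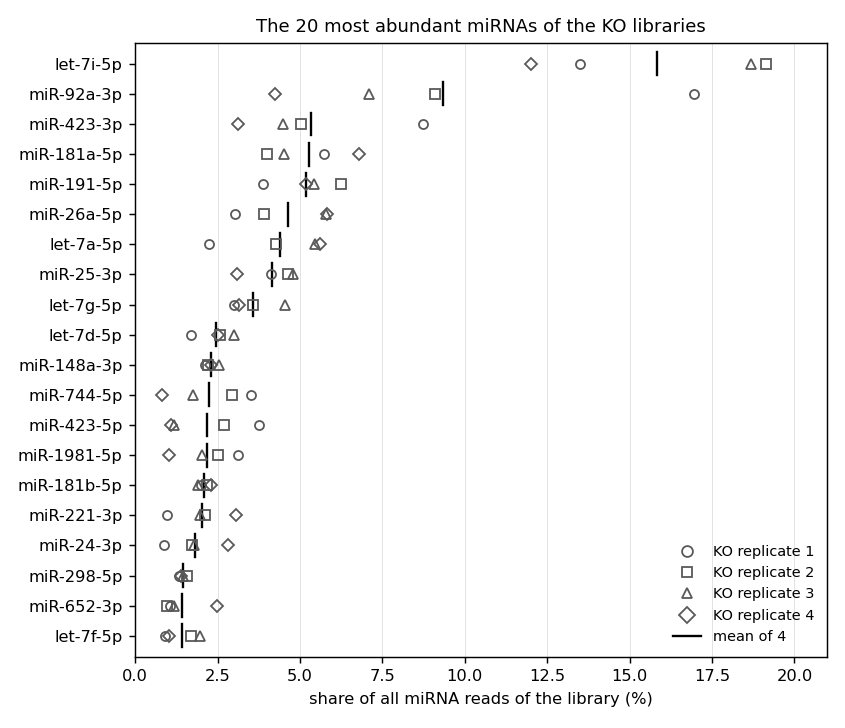
Share of all miRNA reads (x axis, percent) of the 20 most abundant miRNAs in the 4 KO libraries (symbols), with the mean as a black tick. Let-7i-5p has the highest mean, 15.8%, and miR-92a-3p has the widest spread, from 4.26 to 17.0%.

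Arm usage was measured in 68 hairpins with at least 50 reads of both arms together in every KO library. The 5p arm held most reads in every library for 32 of them and the 3p arm for 29. One arm held over 90% of reads in every library for 47 hairpins and over 99% for 28. Summed over names with an arm, 5p reads made up 62.7 ± 5.25% of all reads and 3p reads 36.7 ± 5.21%. Among the hairpins with the most reads, let-7i had 99.98% 5p reads, miR-181a 99.5 ± 0.394% and miR-191 99.7 ± 0.0531%. MiR-92a had 0.250 ± 0.117% and miR-423 27.9 ± 6.06%.

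Both arms were among the 80 miRNAs for 10 hairpins, let-7d, miR-25, miR-27a, miR-221, miR-223, miR-296, miR-330, miR-340, miR-342 and miR-423. The 5p share of miR-27a was 32.5, 38.2, 25.4 and 6.05% and that of miR-223 25.5, 32.6, 32.6 and 32.0%. The gap in T-ending share between the arms was widest in miR-25, with 67.6 ± 4.31% for 5p and 0.116 ± 0.0497% for 3p (n = 4). For miR-342 the 3p arm held 24.6 ± 9.60% and the 5p arm 4 reads of 1023, and for miR-340 the 3p arm held 12.0 ± 3.07% and the 5p arm 2 reads of 821. The 5p arm held more in miR-423, with 6.04 ± 1.04% against 0.0839 ± 0.0163%, and in miR-330, with 4.85 ± 1.69% against 0.161 ± 0.189%. In miR-223 the 3p arm held 10.4 ± 8.40% and the 5p arm 1.64 ± 0.791%. Mean shares were under 1% in both arms of let-7d, miR-27a, miR-221 and miR-296.

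The major arm differed between KO libraries for 7 hairpins. The 5p share of miR-130b was 91.4, 86.1, 86.7 and 42.7% and that of miR-17 75.8, 84.8, 87.8 and 48.5%. For miR-342 it was 64.2, 55.8, 43.5 and 16.3% and for miR-23b 57.5, 45.0, 21.9 and 6.92%. In these 4 hairpins replicate 4 had the lowest 5p share. In miR-340, with 58.1, 45.8, 44.0 and 72.9%, miR-330, with 45.2, 57.2, 52.2 and 62.9%, and miR-30a, with 36.4, 23.1, 24.5 and 54.0%, replicate 4 had the highest.

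**Figure D5:**
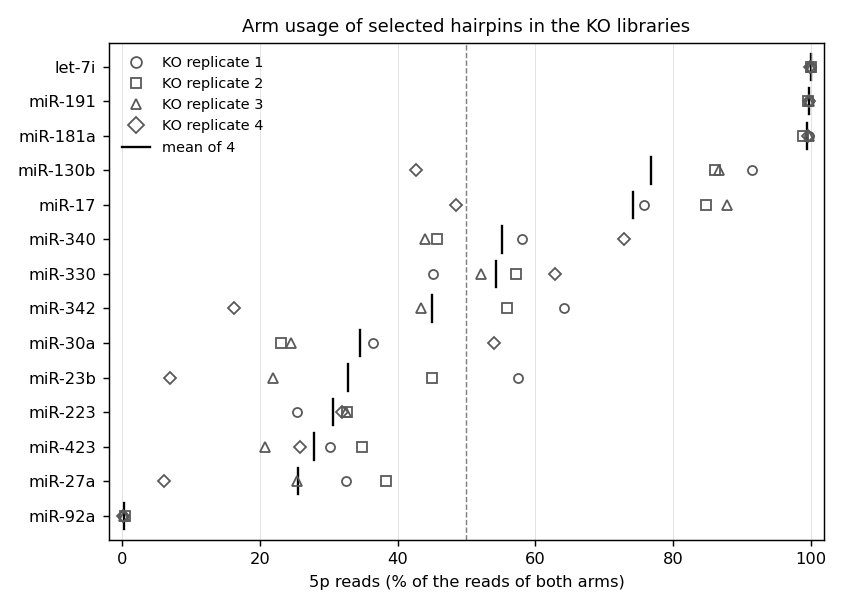
Share of 5p reads among the reads of both arms (x axis, percent) for the 5 hairpins with the most reads and the 9 others named above in the 4 KO libraries (symbols), with the mean as a black tick and a dashed line at 50%. Symbols of 7 hairpins lie on both sides of the line, and replicate 4 is at an end of the range in each of these 7.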

How the data were processed

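Total RNA of 4 KO and 5 WT cultures was size-selected (15 to 40 nt) and made into NEBNext small RNA libraries. The authors trimmed adapters with cutadapt 5.0, mapped the reads with Bowtie 1.3.1, without mismatches, to miRBase mature sequences followed by 3 Ts, and deposited raw counts per miRNA and per distinct read sequence, each with the reference positions it covered. Their uridylation mark equaled an end past the mature 3′ end in every sequence (0 differences), and the deposited counts equaled the sums over sequences (0 differences). The authors' DESeq2 (1.42.1) results were not used.

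T-ending shares, ranks and arm shares were computed per library in Python 3.11.15 with pandas 2.3.3, NumPy 2.4.6 and SciPy 1.17.1, for miRNAs with at least 50 reads in every KO library. Mature sequences were rebuilt from the reads, with RefSeq's for bases that no read covered, and matched to GRCm39. Those found in annotated miRNA genes of GENCODE M39 (786 of 817) gave the bases that follow. The other 31 had an incomplete sequence and held no T-ending KO read. RefSeq's miRNA table named 71 of the 80 miRNAs, 69 with the same sequence. Differences between classes of miRNA within libraries were tested with an exact permutation test of signs. TMM factors (edgeR 4.0.16) and DESeq2 1.42.0 size factors were used only for alternative ranks. The T-ending share per miRNA was checked on simulated reads, and the permutation test on set numbers. The other shares were not checked in this way.

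The KO libraries held 175462 to 479342 reads. The libraries had no molecular identifiers, so PCR copies count as reads, and Wilson intervals and the limit of 3 counts used for a share of 0 cover counting error only. Groups and replicate numbers came from the sample labels, and no labels give batches. The miRNAs named were the 10 most abundant, the 10 with the most T-ending reads, the 5 with the highest share among all, without a genomic T and past the genomic run, the 5 without a T-ending read that had the most reads, the 5 with the most reads of 3 Ts, the let-7 members, 5 hairpins with the most reads, 5 with the most even arms, those whose major arm differed, and 3 on each side of the minimum of 50 reads. Others were named after their values were seen. The members and lists were chosen with earlier results of these data known. Alternatives left out each library, miR-92a-3p or ambiguous reads, and changed the minimum of reads or the rule for a genomic T. Counting only reads that reach the mature end was added after the data were seen.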

Additional observations from a re-analysis of the deposited data

Results flagged for a closer look

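With 4 libraries in a group, a library was taken as lying far from the others when its gap to the nearest of them exceeded the share of the whole range that Dixon's 95% critical value sets for 4 samples. Of 82 values checked, 6 met this, and chance alone gives about 1 in 20 groups. Replicate 4 was far from the rest in 4 of them. The 10 miRNAs with the highest mean share over the KO libraries held 51.5% of its reads, against 62.4 to 63.7% in the other libraries. MiR-342-3p made up 0.314% of its reads, against 0.0586 to 0.0777%, and miR-27a-3p 1.94%, against 0.426 to 0.630%. The 5p share of miR-130b was 42.7% there and 86.1 to 91.4% elsewhere. In replicate 1 the difference in median T-ending share between miRNAs with and without a genomic T was 1.055 percentage points, against 0.274 to 0.391 in the others. In replicate 2 the 5p share of miR-181a was 98.9%, against 99.7 to 99.8%.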

How the results depend on the processing

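No paired analysis was possible because no test between genotypes was made and the KO libraries share replicate numbers only with the WT libraries. Leaving out miR-92a-3p changed the share of T-ending reads from 12.3 to 3.62% and the share of them with 2 or 3 Ts from 2.90 to 9.52%. Requiring a genomic T at every locus changed the share for miRNAs without one from 1.67 to 15.0%, and the shortest genomic run per miRNA changed reads with more Ts than the genome holds from 0.901 to 9.90%, since both then count miR-92a-3p. Counting only reads that reach the mature end, chosen after seeing the data, changed these 2 shares to 2.19 and 1.20%, the median share from 0.349 to 0.700% and the miRNAs without a T-ending read from 5 to 3. With a minimum of 10 reads the median share was 0.102%, 33 miRNAs had no T-ending read and 51 hairpins had a 5p majority, and with 200 reads 2 miRNAs had none. Leaving out 1 library at a time, the median share was 0.235 to 0.374%, the lowest without replicate 1, and 8 to 16 miRNAs had no T-ending read, the most without replicate 1. The share of T-ending reads ranged from 9.92 to 13.8%. With TMM or DESeq2 factors the 20 most abundant miRNAs included all 20 of the main order. Both differences between classes of miRNA kept their sign under every alternative run, but not their size. The 3p minus 5p difference, -0.543 percentage points, was -0.239 with a minimum of 10 reads, -0.361 without replicate 1 and -0.930 over reads that reach the mature end, and the genomic T difference, 0.501, was 0.933 over those reads and 0.449 to 0.625 otherwise. Their p was 0.125 or, with 3 libraries, 0.250 (exact permutation test), which is the smallest p those numbers allow. Shares of miRNAs near 50 reads a library have little precision. Reads extended by a genomic base other than T were not mapped, so all shares leave them out.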
